A study of Mus musculus with 16 samples.

Results

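The 9 genes described here encode Z-disc and giant sarcomere proteins of striated muscle: Ttn, Neb, Actn2, Myoz1, Myot, Ldb3, Tcap, Flnc and Des. They were chosen by name, as every non-control probe that the array annotation gives 1 of these symbols, which found 27 of the 41174 probes on the array and 9 of its 27745 gene names. All 27 probes passed the filter on dim signals, as did 19398 probes in all. RNA came from whole gastrocnemius muscle of male C57BL/6N mice that were 3 months old at the start and were fed a corn oil-based high-fat diet (cHF, about 35% lipid by weight) for 8 weeks. The cHF diet of both groups contained rosiglitazone (10 mg per kg diet), a drug that activates PPARγ. It was the only supplement of the 8 cHF+ROSI mice, whereas for the 8 cHF+F+ROSI mice 15% of the dietary lipids were also replaced by n-3 LC-PUFA concentrate (46% DHA and 14% EPA). All mice were fasted for 10 h and then re-fed Chow overnight, so the muscle was not sampled while the mice ate the high-fat diets. The comparison addresses what n-3 LC-PUFA added to rosiglitazone treatment.

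The sarcomere is the contractile unit of muscle, and neighbouring sarcomeres join at the Z-disc, where thin filaments of opposite orientation are cross-linked. Titin (Ttn) runs from the Z-disc to the M-band at the centre of the sarcomere and acts as a molecular spring, and nebulin (Neb) lies along the thin filament and sets its length. Alpha-actinin (Actn2) cross-links actin in the Z-disc, where myozenin (Myoz1, also called calsarcin), myotilin (Myot), the PDZ-LIM protein cypher (Ldb3) and telethonin (Tcap), which caps the end of titin, are bound. Filamin C (Flnc) links the Z-disc to the cell membrane, and desmin (Des) forms the intermediate filaments that tie neighbouring myofibrils together.

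Promoter sequences are shown for 3 genes whose expression was low in the same mouse as slow fibre genes (Actn2, Des and Ldb3) and for Ttn, whose brightest probe was not. Each runs from 250 bases before to 50 bases after a RefSeq transcription start (GRCm38.p6), 5′ to 3′ on the gene's own strand. RefSeq starts were used for 5 of the 9 genes. Capitals mark matches on either strand to the E-box CANNTG, the MEF2 element, the CArG box bound by serum response factor, or the TATA box TATAAA.
Actn2, chr13:12340683-12340982, minus strand: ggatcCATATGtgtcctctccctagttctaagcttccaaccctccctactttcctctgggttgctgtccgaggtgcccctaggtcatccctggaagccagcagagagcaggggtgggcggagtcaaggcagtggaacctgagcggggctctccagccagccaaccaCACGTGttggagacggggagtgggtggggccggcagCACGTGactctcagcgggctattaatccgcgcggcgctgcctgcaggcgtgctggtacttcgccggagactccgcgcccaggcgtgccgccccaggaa
Des, chr1:75360042-75360341, plus strand: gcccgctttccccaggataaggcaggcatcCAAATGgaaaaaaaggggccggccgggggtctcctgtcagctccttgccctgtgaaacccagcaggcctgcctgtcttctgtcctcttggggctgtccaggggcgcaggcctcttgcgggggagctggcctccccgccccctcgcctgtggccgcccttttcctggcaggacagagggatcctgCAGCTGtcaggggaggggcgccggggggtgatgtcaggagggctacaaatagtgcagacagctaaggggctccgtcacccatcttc
Ldb3, chr14:34588632-34588931, minus strand: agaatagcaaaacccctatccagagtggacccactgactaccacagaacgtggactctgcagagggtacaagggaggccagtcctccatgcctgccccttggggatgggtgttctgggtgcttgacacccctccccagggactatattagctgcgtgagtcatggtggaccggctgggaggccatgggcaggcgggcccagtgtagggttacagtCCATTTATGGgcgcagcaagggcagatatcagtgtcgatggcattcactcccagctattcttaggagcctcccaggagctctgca
Ttn, chr2:76982498-76982797, minus strand: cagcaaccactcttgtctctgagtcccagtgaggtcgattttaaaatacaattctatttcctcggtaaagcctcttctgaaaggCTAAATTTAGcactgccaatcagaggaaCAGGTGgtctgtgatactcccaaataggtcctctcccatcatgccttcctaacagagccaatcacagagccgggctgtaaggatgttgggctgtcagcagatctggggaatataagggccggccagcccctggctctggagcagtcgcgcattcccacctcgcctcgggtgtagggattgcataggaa
Among 32851 promoters of the same length, 72.3% held an E-box, 0.557% a MEF2 element, 1.63% a CArG box and 13.6% the TATA box letters. The Actn2 promoter held 3 E-box matches, the Des promoter 2, and the Ttn promoter 1 together with 1 MEF2 element match. In Ldb3 the match was 1 CArG box. No motif was shared by all 4 promoters, and no 2 matches overlapped. Flnc, the other gene whose RefSeq starts were used, had no match to any of these motifs and is not shown.

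Expression was measured on 16 two-color arrays, 1 per mouse, with the mouse RNA in Cy5 and a common reference pool in Cy3. A value below is log2 of mouse over pool, so a log2 difference of 1 between mice is a doubling. The dyes were not swapped, so a probe's distance from 0 and a difference between the dyes cannot be told apart. For titin, the cHF+ROSI mean was 0.49 at probe A_51_P148509 and -1.13 at probe A_51_P521106. The 4 slides of 4 arrays each held 2 mice per group. On each slide cHF+ROSI mice had positions 1 and 3 and the other group positions 2 and 4, so position and diet cannot be told apart. The median Cy5 signal was 2.33 to 3.64 times background in cHF+ROSI and 2.98 to 3.46 times in cHF+F+ROSI. Background correction compressed the ratios of weak probes on 3 arrays (cHF+ROSI replicates 1 and 5 and cHF+F+ROSI replicate 5). Their median absolute deviation was 0.04 to 0.12 against 0.29 to 0.36 on the other 13 arrays, and without correction it was 0.23 to 0.40 on all arrays. On these 3 arrays the correction moved the values of the brightest probes of the 9 genes by at most 0.09, but moved a dimmer probe by up to 1.06. In whole muscle, fewer cells of a type and less RNA per cell cannot be told apart. All 10 skeletal muscle marker genes were detected.

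No probe of the 9 genes passed the test between the diets after Benjamini-Hochberg adjustment over all 19398 probes in limma, where 0.0155% of all probes did. At an unadjusted limma p of up to 0.05, 1 of the 27 probes was called, which is 3.7% of them beside 7.45% of all probes. The called probe was for Flnc and was lower in cHF+F+ROSI mice, a direction in which 3.97% of all probes were called (3.48% were called higher). With slide as a block, again 1 of the 27 probes was called, beside 7.11% of all probes. Of the 27 probes, 17 had a log2 difference below 0, as did 50.8% of all probes. The median log2 difference (cHF+F+ROSI minus cHF+ROSI) over the brightest probe of each gene was -0.10, or -0.14 without the saturated Tcap probe, beside -0.00 over all probes. From the mouse channel alone it was 0.02 with Tcap and -0.08 without it. Scaling of the arrays to 1 spread gave -0.09 with Tcap and 0.03 without it, and turned the sign for Neb, Myoz1, Ldb3 and Des. These values varied between mice of a group: the SD within groups was 0.12 to 0.56 over the 27 probes with a median of 0.38, beside a median of 0.14 over all probes and 0.14 over the brightest 10% of them.

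**Figure D1:**
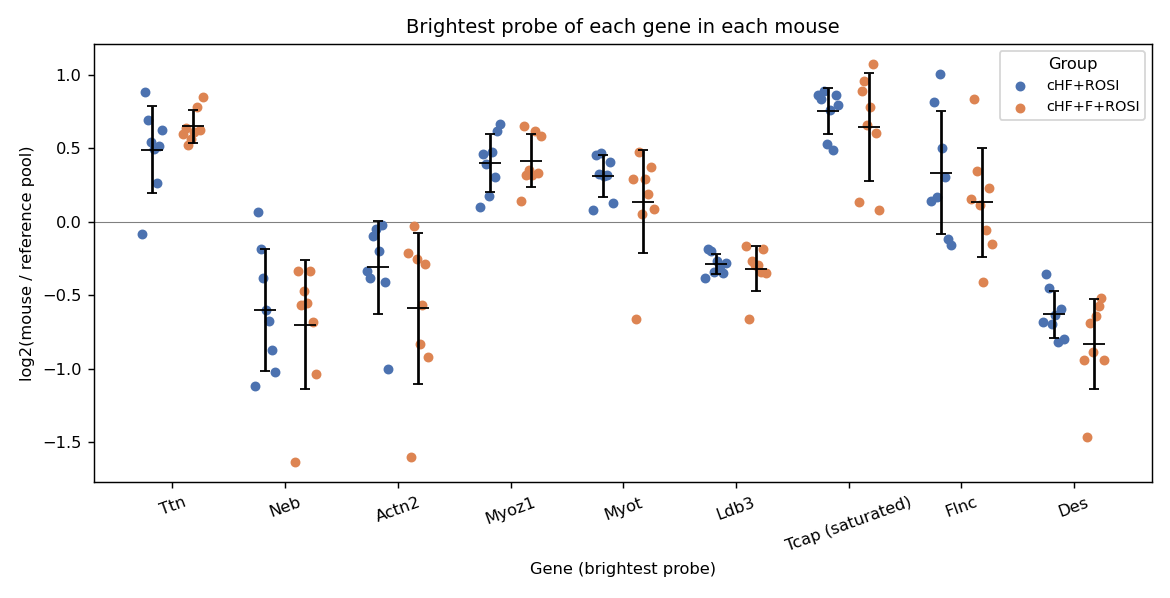
Log2 of mouse over reference pool for the brightest probe of each gene on the y axis, with 1 point per mouse, 8 mice per group, horizontal bars at the mean and vertical bars for the SD. The groups overlap for each of the 9 genes, and single low mice stand apart for Neb, Actn2, Myot, Ldb3 and Des.

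Titin was represented by 9 probes on chromosome 2 (mm8, minus strand). The brightest, A_51_P148509 at chr2:76505330-76505389, ranged from -0.09 to 0.88 with a median of 0.53 in cHF+ROSI and from 0.52 to 0.85 with a median of 0.62 in cHF+F+ROSI. The lowest cHF+ROSI value was that of replicate 1, and the cHF+F+ROSI values all lay within the range of the other group. The means were 0.49 ± 0.29 and 0.65 ± 0.11 (SD, n = 8 each), a log2 difference of 0.16 (SE 0.10, 95% interval -0.06 to 0.38, limma adjusted p = 0.763, exact permutation p = 0.188). It was 0.08 without cHF+ROSI replicate 1 and 0.21 without cHF+ROSI replicate 2, where it passed the unadjusted limma threshold of 0.05. A_51_P219312 at chr2:76714937-76714996 gave a log2 difference of 0.11 (limma adjusted p = 0.779). At the other 7 titin probes the log2 differences ran from -0.17 to 0.13, with unadjusted limma p from 0.512 to 0.970. Without background correction A_51_P191400 went from -0.07 to 0.03. The most distant of them, A_52_P524700 at chr2:76765947-76766006, was at -2.06 in both the lowest cHF+ROSI mouse (replicate 8) and the lowest cHF+F+ROSI mouse (replicate 2), against group medians of -0.73 and -0.80.

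Nebulin had 5 probes, also on chromosome 2 and the minus strand. At the brightest, A_51_P495331 (chr2:52135166-52135225), the cHF+ROSI mice ranged from -1.12 to 0.07 with a median of -0.64, and the cHF+F+ROSI mice from -1.64 to -0.33 with a median of -0.56. The groups overlapped apart from cHF+F+ROSI replicate 1, which was the lowest of all mice, and the 2 highest cHF+ROSI mice. The log2 difference was -0.10 (SE 0.19, 95% interval -0.51 to 0.30, limma adjusted p = 0.944, exact permutation p = 0.644), and it was 0.03 without cHF+F+ROSI replicate 1. The other 4 nebulin probes gave -0.18 to 0.17, with unadjusted limma p from 0.164 to 0.446. The lowest of these, A_52_P180855, went from -0.18 to -0.09 without background correction.

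Of the structural proteins of the Z-disc, Actn2, the actin cross-linker, had 1 probe, which maps in pieces to chr13:12327056-12329428. Its values ran from -0.999 to -0.02 with a median of -0.27 in cHF+ROSI and from -1.60 to -0.03 with a median of -0.43 in cHF+F+ROSI. The lowest mice were cHF+ROSI replicate 8 and cHF+F+ROSI replicate 2, and the groups overlapped. The log2 difference was -0.28 (SE 0.19, 95% interval -0.68 to 0.13, limma adjusted p = 0.788, exact permutation p = 0.222), and it was -0.13 without cHF+F+ROSI replicate 2. Within slides 1 to 4 the difference was -0.46, -0.47, -0.32 and 0.14, so slide 4 differed in sign from the other slides.

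Myot, an actin-bundling partner of alpha-actinin, ranged from 0.08 to 0.47 with a median of 0.32 in cHF+ROSI and from -0.66 to 0.47 with a median of 0.24 in cHF+F+ROSI. Only cHF+F+ROSI replicate 2 lay below 0. The log2 difference was -0.17 (SE 0.12, 95% interval -0.43 to 0.09, limma adjusted p = 0.791, exact permutation p = 0.215), and -0.06 without that mouse.

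Myoz1, which tethers calcineurin to the Z-disc, had 2 probes. The brighter, A_51_P379750 (chr14:19437813-19437872), ranged from 0.10 to 0.67 with a median of 0.43 in cHF+ROSI and from 0.14 to 0.65 with a median of 0.35 in cHF+F+ROSI. These ranges nearly coincided, with a log2 difference of 0.02 (SE 0.09, 95% interval -0.17 to 0.20, exact permutation p = 0.861). The other Myoz1 probe gave 0.11 (limma adjusted p = 0.810).

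Ldb3 had 3 probes. The brightest, A_51_P265348 (chr14:33390595-33390654), was the steadiest of the 9 genes in cHF+ROSI, from -0.38 to -0.18 with a median of -0.29. In cHF+F+ROSI it ran from -0.66 to -0.17 with a median of -0.29, and replicate 2 was the single mouse below the cHF+ROSI minimum. The log2 difference was -0.03 (SE 0.06, 95% interval -0.16 to 0.10, exact permutation p = 0.696), and it was 0.02 without that mouse. A_51_P265351, less than 1 kb away, gave -0.03 (limma adjusted p = 0.949). A_52_P389874, annotated to another Ldb3 transcript at chr14:33358559-33358618, gave -0.16 (limma adjusted p = 0.862) with wider values, from -1.32 to -0.07 in cHF+ROSI and from -1.39 to -0.69 in cHF+F+ROSI.

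Tcap had 1 probe (chr11:98200903-98200962), which was saturated in the mouse channel on 16 of 16 arrays, so no fold is given. The measured ratios ran from 0.49 to 0.89 with a median of 0.81 in cHF+ROSI and from 0.08 to 1.07 with a median of 0.72 in cHF+F+ROSI. The lowest values were those of cHF+F+ROSI replicates 1 (0.13) and 8 (0.08), both on slide 4.

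Flnc had 4 probes on chromosome 6. The brightest, A_52_P61735 (chr6:29411643-29411702), ranged from -0.16 to 1.01 with a median of 0.24 in cHF+ROSI and from -0.41 to 0.84 with a median of 0.14 in cHF+F+ROSI, a log2 difference of -0.20 (SE 0.18, 95% interval -0.58 to 0.18, exact permutation p = 0.329). The groups overlapped over most of their range, and the difference was -0.10 without cHF+ROSI replicate 4 and -0.30 without cHF+F+ROSI replicate 2. A_51_P205907 (chr6:29411119-29411178) was the 1 probe called at the unadjusted threshold. It ran from -0.98 to 0.09 with a median of -0.40 in cHF+ROSI and from -1.11 to -0.45 with a median of -0.72 in cHF+F+ROSI. The groups overlapped, although the highest values were those of cHF+ROSI mice. The log2 difference was -0.32 (SE 0.14, 95% interval -0.61 to -0.04, unadjusted limma p = 0.0292, adjusted p = 0.619, exact permutation p = 0.0465). Within slides 1 to 4 it was -0.34, -0.69, -0.26 and 0.00, and with slide as a block the limma adjusted p was 0.575. The call was lost without the 3 arrays whose ratios were compressed, and without any 1 of cHF+ROSI replicates 2, 4 and 5 and cHF+F+ROSI replicates 5 and 8. The 2 dimmer Flnc probes gave -0.12 each (limma adjusted p = 0.913 and 0.945), or -0.19 and -0.22 without background correction.

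Des had 1 probe printed on 10 spots, which joins 2 stretches of chr1:75249977-75250202. Its values ran from -0.82 to -0.36 with a median of -0.66 in cHF+ROSI and from -1.47 to -0.52 with a median of -0.79 in cHF+F+ROSI, and cHF+F+ROSI replicate 2 was the lowest mouse. The log2 difference was -0.20 (SE 0.11, 95% interval -0.44 to 0.04, unadjusted limma p = 0.0909, adjusted p = 0.719, exact permutation p = 0.111). It was -0.11 without cHF+F+ROSI replicate 2 and -0.25 without cHF+F+ROSI replicate 7, where it passed the unadjusted limma threshold of 0.05. The 10 spots of an array differed little, with a median SD of 0.0441 and a highest SD of 0.0783, against an SD of 0.244 between mice of a group. Spots of 1 array share labelling and hybridisation, which the first SD leaves out. With 8 mice per group the smallest p of the exact two-sided test is 0.000155.

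**Figure D2:**
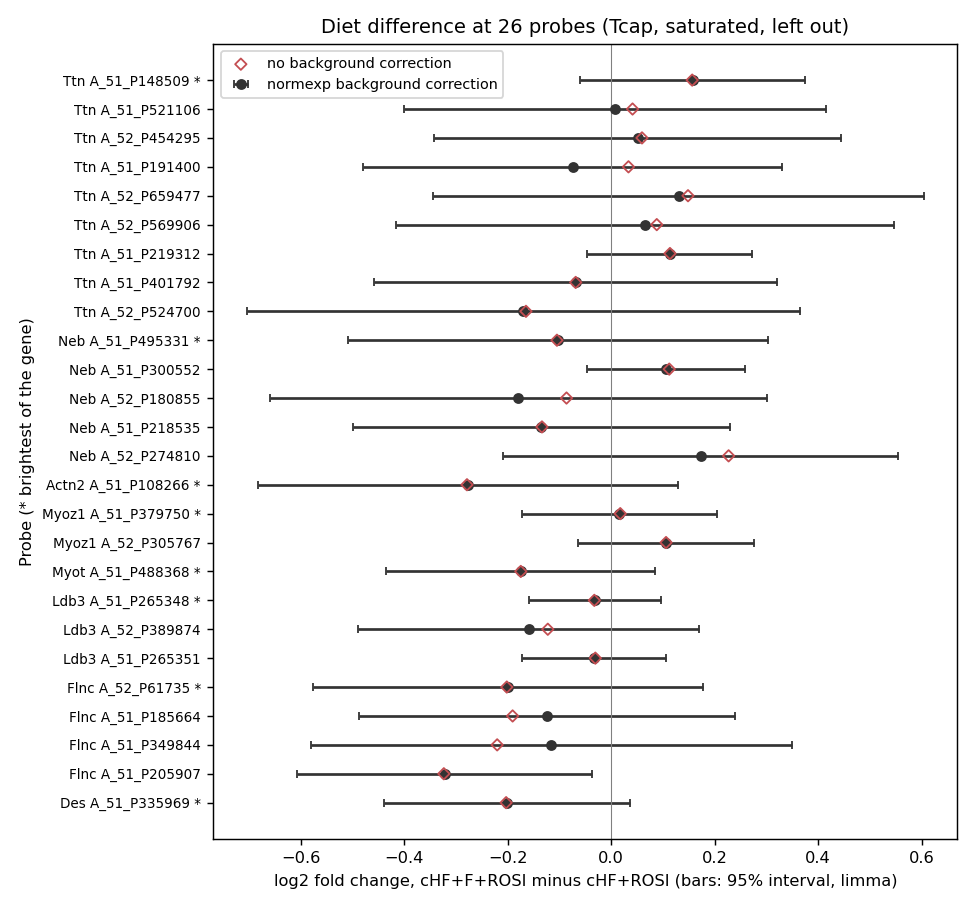
Log2 difference between the diets on the x axis for 26 probes on the y axis, with the 95% limma interval as bars and the value without background correction as diamonds; the saturated Tcap probe is left out. The interval excludes 0 at 1 probe, Flnc A_51_P205907, and the diamonds lie within the interval at all 26 probes.

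The slide means of the titin and nebulin probes spanned 0.16 to 1.05. Over all probes this span had a median of 0.13 and a 90th percentile of 0.32. The span also grows with the spread between mice at a probe. Slide 4 had the lowest mean at 20 of the 27 probes of the 9 genes, beside 33.9% of all probes. At titin probe A_51_P521106 (chr2:76504823-76504865) the means of slides 1 to 4 were -0.68, -0.93, -1.32 and -1.60. At the brightest titin probe, less than 1 kb away, the slide means were 0.49, 0.60, 0.54 and 0.65, so the 2 neighbouring probes followed different patterns. Nebulin probe A_51_P218535 (chr2:52100792-52100851) had slide means of -1.53, -1.87, -1.98 and -2.41.

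These 2 probes were the only ones of the 27 at which the slides differed at an limma adjusted p under 0.05 (F test with diet in the model, adjusted p = 0.0389 for titin and 0.0354 for nebulin), beside 0.371% of all probes. Only nebulin A_51_P218535 was called without background correction (0.217% of all probes) and with background subtraction (0.186%). Leaving out 1 mouse at a time left 0 to 4 of the 27 probes called, and none was called without any 1 of cHF+ROSI replicates 2, 3, 7 and 8 or cHF+F+ROSI replicates 1, 2, 4, 5, 6, 7 and 8. At unadjusted p up to 0.05 the slides differed at 15 of the 27 probes, beside 5.6% of all probes. In the mouse channel alone the slide means of titin A_51_P521106 spanned 0.96 and in the reference channel alone 0.14, and for nebulin A_51_P218535 the spans were 1.03 and 0.21. Each mouse was hybridised on 1 slide, so a slide and the mice on it cannot be told apart.

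**Figure D3:**
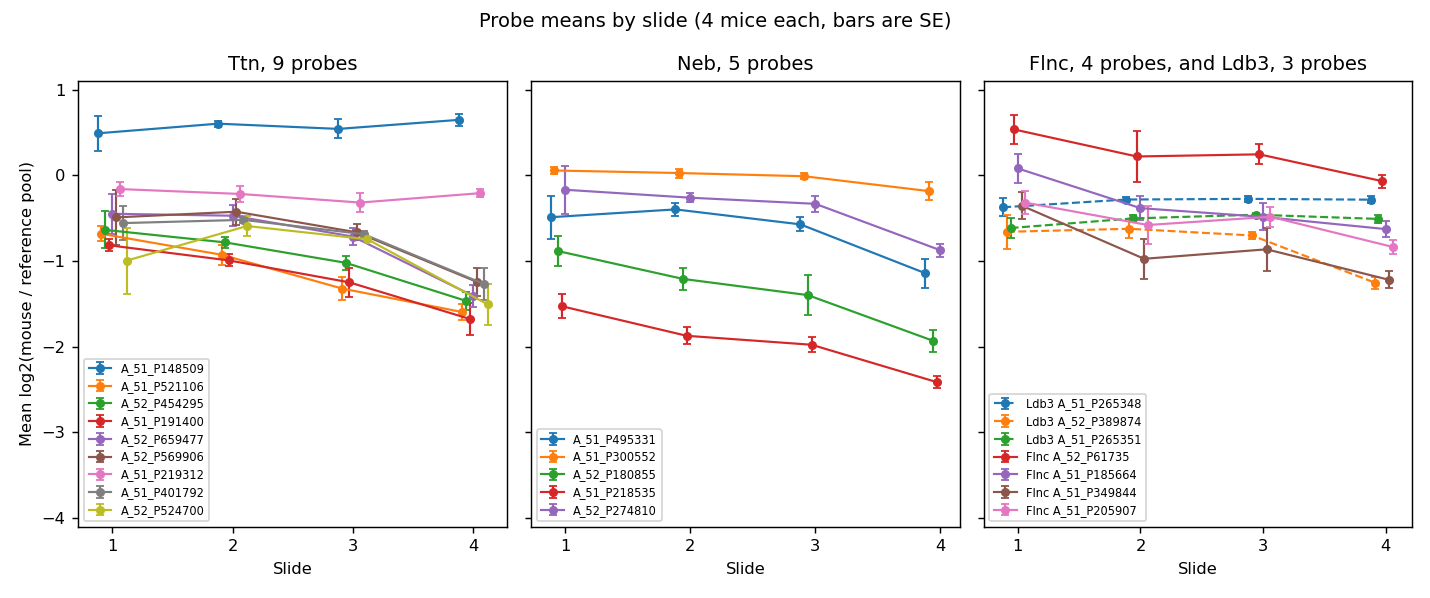
Mean log2 of mouse over pool on the y axis for the probes of Ttn, Neb, Flnc and Ldb3 on slides 1 to 4 on the x axis, 4 mice per slide, with bars for the SE. Slide 4 is lowest at 7 of 9 Ttn probes, at the 5 Neb and 4 Flnc probes and at 1 of 3 Ldb3 probes.

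Single mice set the low end. Of the 16 mice, cHF+F+ROSI replicate 1 was the lowest at 6 of the 9 titin probes, 4 of the 5 nebulin probes and 11 of the 27 probes in all. The same count was not made over all probes, and probes of 1 gene are not independent. The array of this mouse also had the most outlier spots, 200 against 119 to 169 on the others. The titin probes were also set against the brightest nebulin probe over the 16 mice, in 9 relations. At titin A_52_P569906 Pearson's r was 0.94 and Spearman's rho 0.91 (permutation p = 1e-05 for both, the smallest that the 100000 permutations can give, adjusted p = 2.25e-05 for r and 4.5e-05 for rho). Without the 2 mice farthest from the nebulin median (cHF+F+ROSI replicate 1 and cHF+ROSI replicate 2) r was 0.89, and with the group and slide means taken off it was 0.94. The permutations took no account of slide or diet, so a shift shared by the mice of a slide enters these p-values. The r with means taken off was not tested.

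At A_51_P401792, A_52_P659477 and A_52_P454295 r was 0.93, 0.91 and 0.91, each with the same adjusted permutation p, and 0.84, 0.85 and 0.83 without those 2 mice. Their rho was 0.83, 0.87 and 0.90 (adjusted permutation p = 0.000517, 9e-05 and 4.5e-05). A_51_P521106 and A_51_P191400 had r of 0.72 and 0.63 (adjusted permutation p = 0.00211 and 0.0149), which dropped to 0.55 and 0.40 without the 2 mice. Their rho was 0.75 and 0.46 (adjusted permutation p = 0.00239 and 0.102). At A_51_P191400 r was 0.20 with the group and slide means taken off. The other 3 titin probes had r of 0.37 (the brightest probe), 0.17 (A_51_P219312) and 0.42 (A_52_P524700), with permutation p of 0.155, 0.528 and 0.106, and rho of 0.44, 0.22 and 0.52 with adjusted permutation p of 0.104, 0.409 and 0.0596. Once the group and slide means were taken off, r was 0.89, 0.39 and -0.07 at these probes in the same order. These relations were looked for after the values were seen, and each array gives both values of a pair.

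Slow fibres are oxidative, and 9 genes of their contractile and calcium-handling proteins (Myh7, Myl2, Myl3, Tnnt1, Tnni1, Tnnc1, Tpm3, Atp2a2 and Myh6) were averaged in each mouse. This mean ran from -1.31 to 0.74 in cHF+ROSI and from -2.15 to 0.30 in cHF+F+ROSI, with cHF+F+ROSI replicate 2 and cHF+ROSI replicate 8 the lowest. None of the 9 slow fibre genes was called between the diets at unadjusted limma p up to 0.05, beside 8.43% of all gene names. Their median log2 difference was -0.37. The same 2 mice were the lowest of their groups for Actn2. cHF+F+ROSI replicate 2 was also the lowest mouse for Myot, Des and the brightest Ldb3 probe.

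Of 9 relations with this mean over 16 mice, 5 had an adjusted permutation p under 0.05. These relations were not planned, and the permutations took no account of slide or diet. Actn2 had r = 0.81 and rho = 0.61 (permutation p = 4e-04 and 0.0132, adjusted p = 0.0036 and 0.119). Myot had r = 0.72 and rho = 0.40 (permutation p = 0.00793 and 0.123, adjusted p = 0.0293 and 0.265). Des had r = 0.67 and rho = 0.38 (permutation p = 0.00977 and 0.147, adjusted p = 0.0293 and 0.265). Thus no relation was called by rank. Ldb3 had r = 0.61 and rho = 0.14 (permutation p = 0.0263 and 0.600, adjusted p = 0.0474 and 0.758). Myoz1 went the other way, with r = -0.54 and rho = -0.54 (permutation p = 0.0261 and 0.0353, adjusted p = 0.0474 and 0.159).

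With the group and slide means taken off, r was 0.77 for Actn2, 0.69 for Myot, 0.60 for Des, 0.60 for Ldb3 and -0.57 for Myoz1. Without cHF+F+ROSI replicate 2 and cHF+ROSI replicate 8 these became 0.45, 0.18, 0.24, 0.11 and -0.26 in the same order, before means were taken off. Each r was closer to 0 without those 2 mice, and the remaining 14 mice were not tested on their own. For Ttn, Neb, Tcap and Flnc r was -0.37, -0.07, 0.01 and -0.25, with adjusted permutation p from 0.228 to 0.977, and rho was -0.49, -0.20, 0.11 and -0.02, with adjusted permutation p from 0.174 to 0.944.

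**Figure D4:**
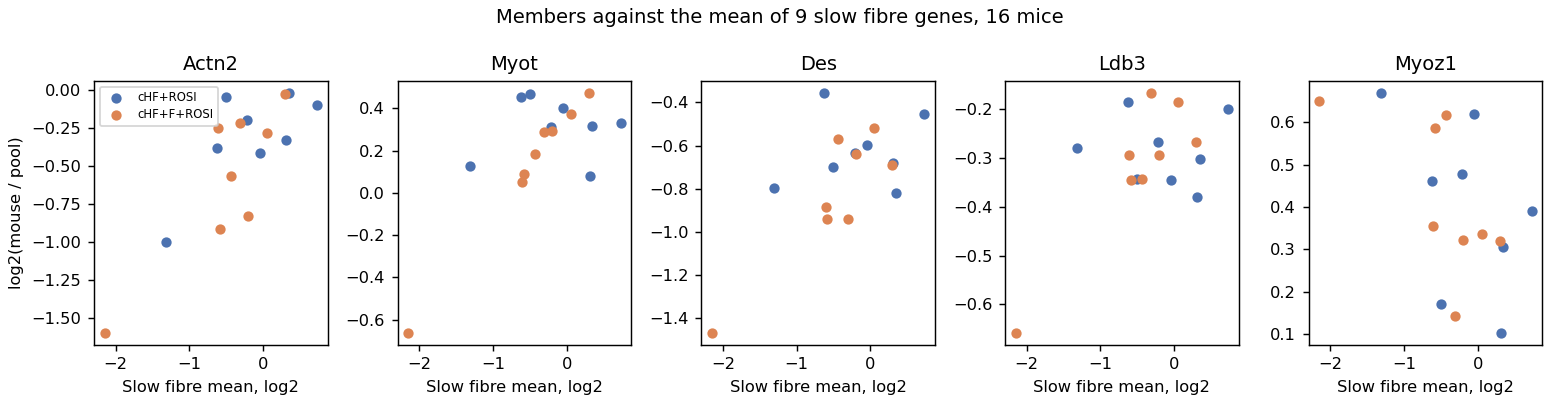
Log2 of mouse over pool for the brightest probe of Actn2, Myot, Des, Ldb3 and Myoz1 on the y axes against the mean of 9 slow fibre genes on the x axes, 1 point per mouse and 8 mice per group. The mouse at -2.15 on the x axis, cHF+F+ROSI replicate 2, is the lowest of all for Actn2, Myot, Des and Ldb3.

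The other sarcomere and cytoskeleton genes were counted from 5 lists, taking the brightest probe of each gene. Of 70 genes, 64 passed the filter, and 14 of these (21.9%) were called at unadjusted limma p up to 0.05, 12 lower and 2 higher in cHF+F+ROSI, beside 8.43% of all gene names (4.67% lower and 3.76% higher). None passed after adjustment, where the lowest limma adjusted p was 0.280, and the median log2 difference was -0.07. The count was 5 without the 3 arrays whose ratios were compressed, 9 without cHF+ROSI replicate 1 or 4 and 8 without cHF+F+ROSI replicate 8. The lists were chosen with earlier results of these data known, so the share of 21.9% is not independent evidence.

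Among other Z-disc proteins, 4 of 18 were lower and 1 was higher, with a median log2 difference of -0.10. The lower genes were Csrp3, the muscle LIM protein (-0.92, SE 0.27, limma adjusted p = 0.372), Fhl1, a LIM-domain protein (-0.68, SE 0.22), Hspb7, a small heat shock protein (-0.62, SE 0.24), and Pdlim1, a PDZ-LIM relative of Ldb3 (-0.30, SE 0.14). Pdlim7, another PDZ-LIM protein, was the higher one (0.19, SE 0.09). Of 8 titin-bound signalling and turnover proteins, 2 were lower, the ankyrin-repeat proteins Ankrd1 (-0.85, SE 0.38) and Ankrd2 (-0.62, SE 0.28). Csrp3, Fhl1, Hspb7 and Krt18 were among genes the study listed from these same mice. Neither their direction nor their part in the count of called genes is independent evidence. Leaving out 1 of the 16 mice at a time ended the call in 10 fits each for Ankrd1 and Pdlim1, 9 for Ankrd2 and 6 for Pdlim7.

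None of 7 M-band and myosin-binding proteins was called, and the 2 with the widest difference were Myom3, a myomesin (-0.29, or -0.10 without cHF+F+ROSI replicate 2), and Mybph, a myosin-binding protein (-0.20). In this list Mybpc2 was saturated in the mouse channel on 15 arrays and Myom2 on 11, so a difference there could be missed. The same holds for Acta1 in the next list, saturated on 15 arrays. Of 12 proteins of thin filament ends and nebulin partners, 2 were lower, the muscle cofilin Cfl2 (-0.15) and the kelch protein Kbtbd10 (-0.16), whose calls ended in 6 and 11 such fits. Of 19 intermediate filament and costamere proteins, which include the partners of desmin, 4 were lower and 1 was higher. The lower ones included nestin (Nes, -0.28), keratin Krt18 (-0.75) and the integrin subunit Itgb1 (-0.12), and dystrophin (Dmd, 0.18) was higher.

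**Figure D5:**
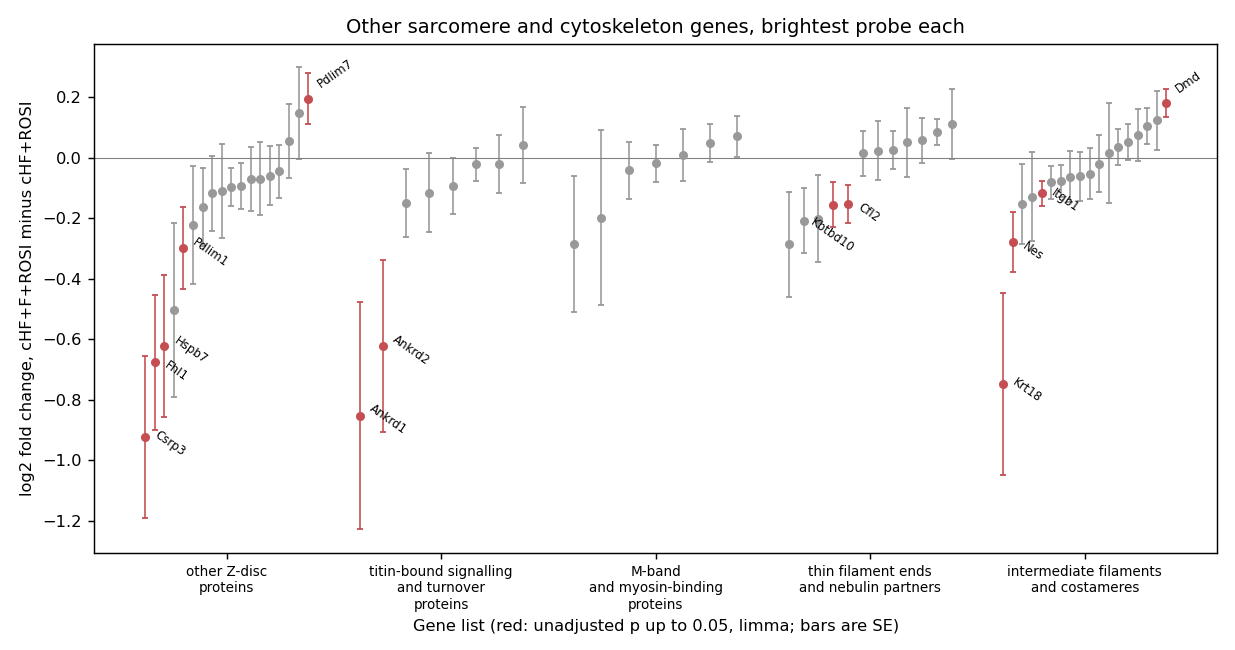
Log2 difference between the diets on the y axis for the brightest probe of the other sarcomere and cytoskeleton genes drawn (all but 1 of the 64) in 5 lists on the x axis, with bars for the SE and red for unadjusted limma p up to 0.05. The red genes lie below 0 apart from Pdlim7 and Dmd, and none passed the adjusted threshold.

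Markers of other cells in the muscle were counted in the same fit, and their part in the values above was not tested. Over all gene names 8.43% were called at unadjusted limma p up to 0.05, 4.67% lower and 3.76% higher. No marker passed after adjustment. At unadjusted limma p up to 0.05, 3 of 6 endothelial markers (Cldn5, Cdh5 and Kdr) were lower, and the mean of the 6 ran from -0.21 to 0.01 in cHF+ROSI and from -0.47 to -0.15 in cHF+F+ROSI. Of 6 fibroblast markers 1 was lower (Lum), with means of -0.56 to 0.36 and -0.45 to 0.48. No gene was called among 7 adipocyte markers (-1.02 to 0.38 and -1.40 to 1.00), 7 macrophage markers (-0.45 to 0.46 and -0.30 to 0.27), 6 smooth muscle markers (-0.22 to -0.01 and -0.29 to 0.07), 4 red blood cell markers (-0.68 to -0.06 and -0.60 to 0.94) and the 10 skeletal muscle markers (0.14 to 0.55 and 0.24 to 0.43). Of the skeletal muscle markers, Myh4 was saturated in the mouse channel on 16 arrays and Acta1, Tnnt3 and Tnni2 on 15. Mylpf was saturated on 13, Tnnc2 on 9, Myh1 on 1, and Atp2a1, Pvalb and Ckm on none. A saturated probe can miss a difference between the diets. The adipocyte mean was lowest in cHF+F+ROSI replicate 1, the mouse that was lowest at most titin and nebulin probes. Myocd of smooth muscle and Epb4.2 of red blood cells were not well above background on any array.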

How the data were processed

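Total RNA of single mice was hybridised by the authors to Agilent whole genome mouse arrays, and images were read with Feature Extraction (10.5.1.1 in the file headers, 10.5.5.1 in the submitters' processing notes). The deposited scanner files hold intensity values, in which the authors joined scans at 10% and 100% laser power. The authors also deposited a normalized log2 table made in GeneMaths XT, used here only as an alternative. Groups came from the labels, and no column holds the authors' comparisons.

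Median intensities were corrected with normexp (offset 50), outlier spots were left out, probes with a mean signal at least 2 times background in both channels were kept, ratios were normalized by loess within arrays, and spots of a probe were averaged. Diets were compared with limma 3.58.1 in R 4.3.3 (lmFit and eBayes), with Benjamini-Hochberg adjustment over 19398 probes, of which 19310 had a value on every array. The 0.05 threshold on unadjusted p follows the study's methods. The 95% intervals use limma's moderated degrees of freedom. Exact permutation tests were two-sided, over 12870 regroupings of mice. Correlations used 100000 permutations over all mice, whatever their slide or diet. The scripts were tested on these arrays with the mice regrouped and changes put into the Cy5 signal of randomly drawn probes. The outcome of that test is not given here. Array number limits the precision, and no 2 arrays were identical. Mice were housed 2 per cage, and cages are not given in the sources used here.

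The 9 genes and all lists were chosen with earlier results of these data known. All probes of the 9 genes are named or counted, brightest first. Of the other lists, genes with an unadjusted p up to 0.05 are named, or the 2 with the widest difference where fewer were called; 1 called gene is counted but not reported here. The genes most alike were ranked by Pearson's r with the mean of the 9 brightest probes after group means were taken off. Alternatives covered background correction, normalization, filter, Cy5 alone, blocks, array weights, the methods' t-test and leaving out each mouse. After seeing the data, background subtraction, the tests between slides and leaving out slide 4 or the 3 arrays with compressed ratios were added. The correlations with nebulin and with the slow fibre mean were not planned either.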

Additional observations from a re-analysis of the deposited data

Results flagged for a closer look

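Among 112 sets of 8 mice (each a probe or a list mean in 1 group), 14 had a mouse whose gap to its nearest neighbour was too wide a share of the group's range by Dixon's test for 8 samples, where chance flags about 1 set in 20. In cHF+F+ROSI replicate 2 these were Myot (-0.66), Ldb3 A_51_P265348 (-0.66) and A_51_P265351 (-0.90), Des (-1.47), Myom3 (-1.67) and the slow fibre mean (-2.15), all low, and Ankrd1 (1.2), which was high. In cHF+ROSI replicate 8 the values of Ttn A_52_P524700 (-2.06), Actn2 (-0.999), Pdlim1 (-0.88) and the mean of other Z-disc proteins (-0.37) were low. The remaining 3 were Mybph in cHF+F+ROSI replicate 4 (-1.83), Itgb1 in cHF+ROSI replicate 1 (0.0461) and the red blood cell mean in cHF+F+ROSI replicate 6 (0.94).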

How the results depend on the processing

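No probe of the 9 genes passed the adjusted limma threshold under any alternative. The unadjusted count, 1 in the main setting, was 0 with scale normalization, with the authors' log2 table and without the 3 compressed arrays, and 2 without slide 4. Leaving out 1 mouse gave 0 to 2 (0 without cHF+ROSI replicate 4 or 5 or cHF+F+ROSI replicate 5 or 8). The median log2 difference of the 9 genes was -0.18 to -0.05 on leaving out 1 mouse, 0.02 with Cy5 alone and -0.02 in the authors' table. These medians include Tcap, and without it they were -0.19 to -0.07, -0.08 and -0.06.

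The count of other sarcomere genes, 14, was 7 with scale normalization, 8 in the authors' table, 9 with array weights and 5 without the 3 compressed arrays, and 8 to 19 on leaving out 1 mouse (19 without cHF+ROSI replicate 8, 8 without cHF+F+ROSI replicate 8, 9 without cHF+ROSI replicate 1 or 4). The count of the 27 probes that differed between slides, 2, was 1 with no correction, subtraction, median centring or no filter, 0 with scale normalization or Cy5 alone, 9 with array weights, 4 without the 3 compressed arrays and 0 to 4 on leaving out 1 mouse.

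The sign turned, with no call in either direction, with scale normalization for Neb (0.72), Myoz1 (-0.13), Ldb3 (0.24) and Des (0.35), with Cy5 alone for Neb (0.0230) and Ldb3 (0.0222), and in the authors' table for Ldb3 (0.0427). For Myoz1 it also turned with median centring (-9.5e-05), array weights (-0.0178) and without the 3 compressed arrays (-0.0069). On leaving out 1 mouse Ttn ran from 0.08 to 0.21, Flnc from -0.30 to -0.10, Des from -0.25 to -0.11, Myoz1 from -0.0263 to 0.0549, Neb from -0.18 to 0.0306, Ldb3 from -0.0531 to 0.0172 and Mybph from -0.31 to 0.0489. Scale normalization widened the ratios of the compressed arrays, and other causes were not tested.

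The labels do not say whether replicate numbers pair the mice. Same-numbered mice correlated from -0.338 to 0.739, and only 4 of 8 pairs were above 0.1, which cannot decide it. The highest value was that of replicate 5, where both arrays had compressed ratios. With the replicate block, 2 of the 27 probes and 16 other sarcomere genes were at unadjusted p up to 0.05 and none of the 27 passed adjustment, with a median of -0.10. The saturated Tcap probe enters the medians and counts, with no value of its own for the alternatives. On the 3 compressed arrays background correction moved Flnc A_51_P349844 by up to 1.06, Ttn A_51_P191400 by up to 0.80, Neb A_52_P180855 by up to 0.77 and Flnc A_51_P185664 by up to 0.51, and the last was not well above background on 6 arrays.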

Other observations

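Over the 16 mice, with group means taken off, the genes outside all lists whose brightest probe was most like the mean of the 9 brightest probes were Tbcel (r = 0.83), Kifap3 (0.83), Ndrg2 (0.82), Uvrag (0.82) and Nr1d2 (0.82), out of 13369 genes. With slide means also taken off r was 0.77 to 0.85. The points share their arrays, and the genes were picked for these values, so no p is given. Between the diets the log2 differences were 0.03 for Tbcel, 0.03 for Kifap3, -0.14 for Ndrg2, 0.04 for Uvrag and 0.09 for Nr1d2, with unadjusted limma p from 0.111 to 0.655.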
